A study of Mus musculus with 8 samples.

Results

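RNA polymerase II loops that joined the ends of different genes were taken from a single pooled contact map of KLF4-KO mouse embryonic stem cells. A loop was kept when its anchors differed, when at least 2 paired-end tags (PETs) linked them in the KO pool, and when the anchor midpoints lay from 20 kb to under 1 Mb apart. Both anchors also had to lie within 1 kb of the start or end of a RefSeq gene on mm10, with no gene touching both. By these criteria 9706 of the 23004 KO loops of that range were gene-to-gene loops, or 42.2% (exact 95% interval 41.6 to 42.8). The loops were selected on their KO PET counts and on annotation, so their number, PET counts and distances are given as a description with no test.

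HiChIP ligates DNA ends that are near each other in the nucleus and enriches the joined fragments that carry a chosen protein, here RNA polymerase II. The cells were KLF4-KO E14 cells and their WT controls, both of the E14 line, which the labels trace to the blastocyst embryo. KLF4 is a zinc finger transcription factor of the pluripotency network, and the series title concerns its part in neural differentiation and chromatin structure. The labels give the same culture conditions for both genotypes, on gelatin with 15% serum. One protocol field adds 10 ng/mL LIF, 1 µM of the MEK inhibitor PD0325901 and 3 µM of the GSK inhibitor CHIR99021, and the other gives 1000 U/mL LIF. Each genotype had 2 HiChIP samples, deposited as 1 pooled loop file, and 2 RNA-seq libraries, named B and F in KO cells and 1 and 2 in WT cells. The sources used here do not give the number of KO clones behind them.

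Active gene starts often lie close together in the nucleus even when other genes separate them along the chromosome. Such contacts are described as promoter hubs or transcription clusters, and many of the genes in them are housekeeping genes. They differ from enhancer contacts in that both anchors are gene ends.

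The pools and libraries differed in ways that bear on the results below. The KO pool held 401726 PETs in 118475 rows and the WT pool 35189 PETs in 19914 rows, an 11.4-fold difference in depth (10.0-fold for PETs between different anchors). Gene counts were 8448519 and 8287497 in the KO libraries, against 9020599 and 9762190 in WT libraries 1 and 2. Klf4 (ENSMUSG00000003032) had 0 counts in both KO libraries, against 2882 and 2421 in the WT libraries, and was at least 1595-fold lower in KO (edgeR FDR 1.9e-04, floor of 3 counts over the KO group). No gene-to-gene loop touched Klf4. Chromosome 14 stood apart, with a median log2 fold change of -0.63 over 474 tested genes, of which 20.9% were called. On the Y chromosome 5 genes were tested, with a median log2 fold change of -10.06, and 80% of them were called. Summed embryonic stem cell markers were 7835 and 7336 CPM in the KO libraries and 6607 and 7845 CPM in the WT libraries, with 0 of 8 markers at 0 in all libraries. The 6 neural progenitor markers summed to 20.1 and 13.5 CPM in KO and to 35.9 and 36.5 CPM in WT. The 8 fibroblast markers summed to 15.2 and 12.5 CPM in KO and to 8.76 and 8.40 CPM in WT, with 3 of 8 at 0 in all libraries. The 6 primitive endoderm markers stood at 9.47 and 6.76 CPM in KO, against 7.98 and 8.19 CPM in WT, and the 4 neuronal markers at 303.6 and 276.8 CPM in KO, against 190.1 and 243.1 CPM in WT. By edgeR at an FDR of 0.05, 1 of 3 tested neural progenitor markers was higher in KO and 1 lower, so their sum hides opposite changes. Of the tested markers, 1 of 8 stem cell, 1 of 3 primitive endoderm and 1 of 3 neuronal ones were higher and 0 lower. Of 3 tested fibroblast markers 0 were called. Over all tested genes 2.96% were higher and 5.34% lower. The part of these markers in the expression results was not tested.

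These 4 pairs of promoters show what these loops joined. Hspa4 with Zcchc10 and Ensa with Mcl1 were among the 3 loops with the most KO PETs. Fxr2 with Eif4a1 ran to an anchor shared by 38 loops, and both genes of Nfatc4 with Nynrin were called lower in KO. Each sequence is the RefSeq promoter on GRCm38.p6, from 250 bases before to 50 bases after the gene start, read 5′ to 3′ on the gene's strand. For Mcl1 the start in that table lies 1777 bp inside the start of the RefSeq gene coordinates used to place loops. Capitals mark matches, on either strand, to 9 motifs that are spelled out further on.
Hspa4 (minus strand, chr11:53300430-53300729) and Zcchc10 (plus strand, chr11:53324439-53324738) were joined by 156 KO PETs. The Hspa4 window held no match and the Zcchc10 window 1 YY1 match, just after the gene start:
Hspa4: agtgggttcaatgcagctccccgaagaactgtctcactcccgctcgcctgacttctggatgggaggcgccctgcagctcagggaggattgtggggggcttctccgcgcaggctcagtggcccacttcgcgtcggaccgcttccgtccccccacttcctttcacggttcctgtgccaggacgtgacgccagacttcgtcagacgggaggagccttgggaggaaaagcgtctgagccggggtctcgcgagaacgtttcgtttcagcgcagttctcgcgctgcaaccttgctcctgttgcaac
Zcchc10: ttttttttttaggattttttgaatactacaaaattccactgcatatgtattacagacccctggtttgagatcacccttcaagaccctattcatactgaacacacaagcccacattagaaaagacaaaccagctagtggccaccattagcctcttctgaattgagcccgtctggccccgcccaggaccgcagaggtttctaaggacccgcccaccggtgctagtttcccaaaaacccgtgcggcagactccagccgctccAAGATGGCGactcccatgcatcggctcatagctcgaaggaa
Ensa (plus strand, chr3:95624730-95625029) and Mcl1 (plus strand, chr3:95658471-95658770) were joined by 132 KO PETs. The Ensa window held 3 CCAAT boxes in reverse and the Mcl1 window no match:
Ensa: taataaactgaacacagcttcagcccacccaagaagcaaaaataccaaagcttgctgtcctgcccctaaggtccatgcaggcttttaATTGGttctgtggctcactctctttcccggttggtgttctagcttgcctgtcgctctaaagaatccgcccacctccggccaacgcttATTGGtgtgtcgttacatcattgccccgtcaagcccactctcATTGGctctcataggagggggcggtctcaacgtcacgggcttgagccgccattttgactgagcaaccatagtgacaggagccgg
Mcl1: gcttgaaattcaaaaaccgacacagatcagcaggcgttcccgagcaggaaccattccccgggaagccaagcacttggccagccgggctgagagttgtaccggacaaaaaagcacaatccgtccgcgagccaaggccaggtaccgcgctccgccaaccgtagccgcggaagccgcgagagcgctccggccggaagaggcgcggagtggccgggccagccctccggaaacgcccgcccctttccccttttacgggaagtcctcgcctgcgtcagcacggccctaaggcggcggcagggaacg
Fxr2 (plus strand, chr11:69632721-69633020) and Eif4a1 (minus strand, chr11:69672374-69672673) were joined by 90 KO PETs. The Fxr2 window held 1 GC box and the Eif4a1 window 3 CCAAT boxes:
Fxr2: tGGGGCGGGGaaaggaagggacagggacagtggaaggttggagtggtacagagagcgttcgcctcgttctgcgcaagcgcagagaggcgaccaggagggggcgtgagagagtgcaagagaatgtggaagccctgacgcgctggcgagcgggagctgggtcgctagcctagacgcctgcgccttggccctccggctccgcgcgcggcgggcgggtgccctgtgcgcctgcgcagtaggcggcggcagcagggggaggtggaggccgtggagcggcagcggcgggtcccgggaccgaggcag
Eif4a1: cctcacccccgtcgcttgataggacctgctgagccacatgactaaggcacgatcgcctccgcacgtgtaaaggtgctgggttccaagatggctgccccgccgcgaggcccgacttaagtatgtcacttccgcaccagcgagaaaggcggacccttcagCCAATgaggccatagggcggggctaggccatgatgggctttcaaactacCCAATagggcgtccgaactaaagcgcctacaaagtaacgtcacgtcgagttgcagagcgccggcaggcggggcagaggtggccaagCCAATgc
Nfatc4 (plus strand, chr14:55824545-55824844) and Nynrin (plus strand, chr14:55853865-55854164) were joined by 16 KO PETs. The Nfatc4 window held 2 KLF matches, 1 GC box and 3 CCAAT boxes, and the Nynrin window 1 KLF match:
Nfatc4: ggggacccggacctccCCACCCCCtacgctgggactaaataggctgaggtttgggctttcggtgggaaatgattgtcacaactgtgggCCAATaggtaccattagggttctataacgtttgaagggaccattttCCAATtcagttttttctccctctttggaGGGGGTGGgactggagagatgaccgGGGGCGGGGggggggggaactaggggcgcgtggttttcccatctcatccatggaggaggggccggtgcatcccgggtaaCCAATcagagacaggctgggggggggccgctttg
Nynrin: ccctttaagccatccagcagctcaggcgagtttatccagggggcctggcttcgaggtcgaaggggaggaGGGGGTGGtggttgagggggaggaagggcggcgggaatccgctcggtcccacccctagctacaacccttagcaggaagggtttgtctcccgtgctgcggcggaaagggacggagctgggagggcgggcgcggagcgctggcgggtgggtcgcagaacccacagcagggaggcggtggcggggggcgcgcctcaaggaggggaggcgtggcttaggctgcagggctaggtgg
All 8 windows lay inside the anchors of their loops. In GC content they ran from 49.7% in Zcchc10 to 71.3% in Fxr2.

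Across all loops, promoters at the loop anchors held more CpG sites than the other promoters. Of genes whose start lay within 1 kb of an anchor of a gene-to-gene loop and that passed the RNA-seq count filter, 4886 had a promoter sequence. Their median GC content was 61.0%, with a median of 22 CpG sites in the 300 bases, against 56.3% and 13 over all 17492 coding promoters. Tested genes at no such anchor (5368 promoters) had 61.0% and 19. For 4 motifs the share at the loop anchors was more than 1.5 times that in both other sets. The ETS motif (CCGGAAGT) was in 10.4% of promoters at the anchors, against 6.15% of those elsewhere and 5.28% of all coding promoters. The NRF1 motif (GCGCATGCG) was in 4.93%, against 2.70% and 2.41%. The ZFP143 motif (ACTACANTT) was in 3.44%, against 2.03% and 1.96%, and the YY1 motif (AAGATGGCG) in 3.91%, against 2.48% and 1.92%.

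For the other 5 motifs the share at the anchors lay closer to that of tested promoters elsewhere. The KLF motif (GGGNGTGG), of the kind KLF4 is known to bind, was in 23.2% of promoters at the loop anchors, 24.4% of tested promoters elsewhere and 19.3% of all coding promoters. The GC box (GGGGCGGGG) was in 22.6%, 22.4% and 15.5%, the CTCF motif (AGGGGGCGC) in 2.44%, 2.33% and 1.68%, and the CCAAT box (CCAAT) in 40.6%, 38.8% and 39.2%. The TATA box (TATAAA) was in 6.53%, 7.53% and 13.3%. Both strands were searched, each motif was counted on its own, also where it overlapped another, and a match is a string of letters rather than a shown binding site. These shares are descriptions of promoter sets that were not matched for expression or base composition.

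Most gene-to-gene loops rested on few PETs. Of the 9706 loops, 4693 (48.4%) had 2 PETs, 1879 had 3 and 1015 had 4, whereas 582 had 10 or more and 6 had 100 or more. The median was 3 PETs and the highest count 156, and together they held 39633 PETs. Their midpoints were a median of 115 kb apart (quartiles 54.3 and 236 kb). Just outside the PET threshold lay 14795 pairs of anchors with 1 PET that otherwise followed the rule, with a median distance of 278 kb, against 162 kb for the loops with 2 PETs. At the lower distance limit, the 81 loops of 20 to 21 kb had a median of 5 PETs and the 91 pairs of 19 to 20 kb one of 4. At the upper limit, 23 loops just under 1 Mb and 25 just over it had a median of 2 PETs each.

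A gene start lay near most anchors. An anchor near both a start and an end was counted as a start, which raises the start shares. Among the 7219 loops with a gene of known strand at both ends, 5659 (78.4%) joined 2 gene starts, 1430 (19.8%) a start and an end, and 130 (1.80%) an end and an end. A start was among the touching ends in 88.1% of the anchor sides of these loops, and in 85.6% of the gene sides of KO loops between a gene and a distal site. Loops found by the same rule in the WT pool joined 2 starts in 802 of 998 cases (80.4%). In 4438 loops with the start of a tested coding gene at both ends, the genes ran in the same direction in 50.1%, away from each other in 25.8% and towards each other in 24.1%.

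Many loops passed over other genes. No coding gene lay between the anchors in 2266 loops (23.3%), the median was 2 genes and the highest 65. The loops touched 8602 genes. Of these 6368 were protein-coding, which is 29.1% of annotated coding genes, 1384 were long non-coding RNA genes and 170 small nucleolar RNA genes. Transfer RNA genes numbered 133, or 32.6% of those annotated. A coding gene was at both ends of 7513 loops (77.4%).

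In all 5 distance bins, the share of KO anchor pairs linked by 2 or more PETs was larger for pairs at gene ends than for pairs with 1 or 2 distal sites. At 20 to 50 kb, 52.0% of the possible gene-to-gene pairs were linked, against 49.4% of gene-to-distal pairs and 43.9% of pairs of distal sites. At 100 to 200 kb the shares were 20.2%, 14.8% and 12.1%, and at 500 kb to 1 Mb 1.58%, 1.04% and 0.880%. The ratio of the first to the last share was thus larger at long distances than at short ones. In the WT pool, which the selection did not use, the same order held up to 500 kb. There the shares at 20 to 50 kb were 21.5%, 18.4% and 14.2%, and at 100 to 200 kb 5.53%, 3.30% and 1.91%. At 500 kb to 1 Mb they were 0.257%, 0.155% and 0.164%, where the distal share rests on 2 pairs. Pairs share anchors, so no test is given.

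**Figure D1:**
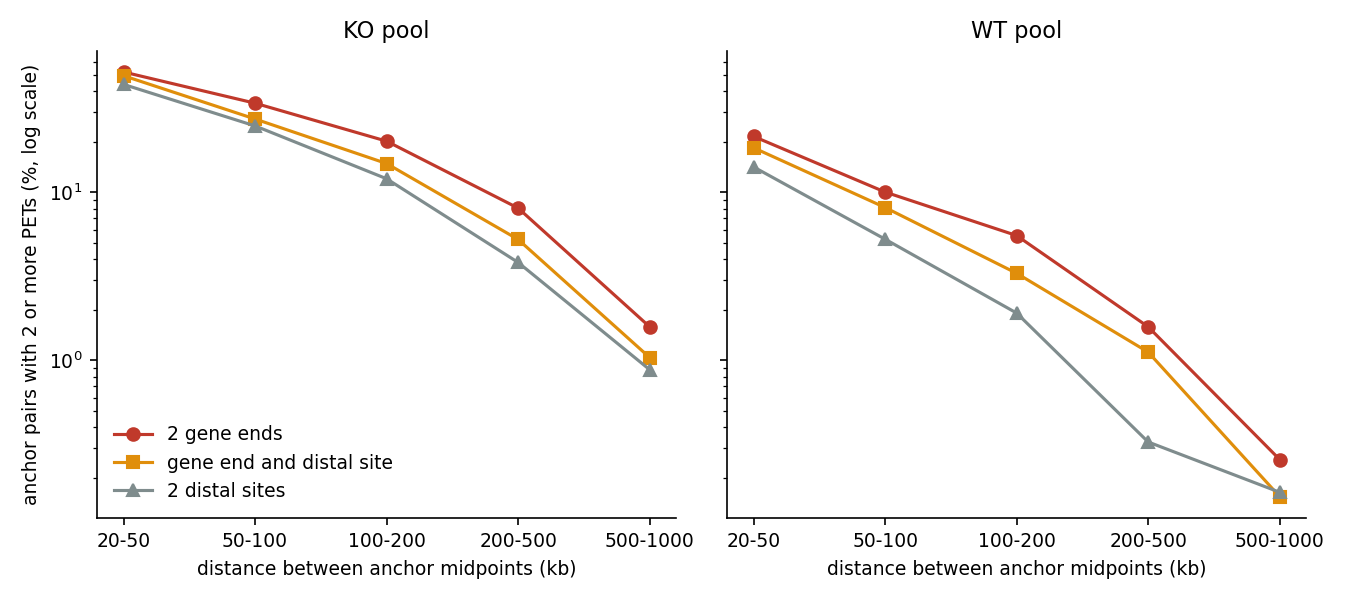
Percent of anchor pairs linked by 2 or more PETs (log scale) against the distance between anchor midpoints, in the KO pool (left) and the WT pool (right), for pairs at 2 gene ends, at a gene end and a distal site, and at 2 distal sites. In the KO pool the gene-to-gene line lies highest at each distance, running down to 1.58% at 500 kb to 1 Mb.

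Anchor width moved with these shares and counts. KO anchors at gene ends had a median width of 3099 bp and distal KO anchors one of 2688 bp, with medians of 3 and 2 PETs inside the anchor itself. WT anchors at gene ends had a median of 2028 bp and distal ones of 1916 bp. Over all anchors the median width was 2932 bp in KO and 1999 bp in WT. Within the gene-to-gene loops, the summed width of both anchors had a median of 26282 bp for loops of 20 or more PETs, which lay a median of 37.5 kb apart, against 8727 bp for those of 2 PETs. The gap left between the anchors had a median of 108.5 kb over all loops, and was under 10 kb in 13. Over the 12 loops with the most PETs it ran from 1.56 to 46.3 kb. With both anchors at most 10 kb wide, 7334 loops remained. The part of anchor width in the linked shares and the PET counts was not tested.

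The loop with the most KO PETs joined Hspa4, which encodes a cytosolic heat shock chaperone, to Zcchc10, a zinc finger gene, over 22.8 kb, with 156 PETs in KO and 3 in WT. A stretch annotated as Gm51446 was joined to Actn4, for an actin-crosslinking protein, by 141 PETs in KO and 0 in WT. The Gm51446 anchor lay inside the body of Actn4, so this loop did not join separate stretches of 2 genes. Ensa, for a phosphatase inhibitor of mitosis, was joined to Mcl1, for an anti-apoptotic BCL2 family protein, by 132 PETs in KO and 3 in WT. All 3 loops spanned less than 32 kb and passed over no other coding gene. Malat1 and Neat1, neighbouring genes of abundant nuclear non-coding RNAs, were joined by 117 PETs in KO and by 54 in WT. Pml, for the scaffold of nuclear bodies, and the matrix enzyme gene Loxl1 were joined by 100 PETs in KO and 7 in WT. Gm13056 and the ephrin receptor gene Epha2 were joined by 100 in KO and 4 in WT. The next 6 loops held 70 to 90 KO PETs and 0 or 1 WT PET. They joined Fxr2, for an RNA-binding protein, to Eif4a1, for a helicase of translation initiation, Gm32673 to the tetraspanin gene Cd9, and Znrd1 to the imprint keeper gene Zfp57. Irf2bpl had 3 of them, with Gm32806, Gm40491 and the clock regulator gene Cipc.

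Read against pool depth, the strongest loops did not all point the same way. Per 10000 PETs between different anchors, Malat1–Neat1 held 4.94 in KO (exact 95% interval 4.09 to 5.92) and 22.9 in WT (17.2 to 29.9). Hspa4–Zcchc10 held 6.59 in KO (5.59 to 7.71) and 1.27 in WT (0.262 to 3.72). Fxr2–Eif4a1 held 3.80 in KO (3.06 to 4.67) and none in WT. That loop did not have a WT anchor within 1 kb at each end. No WT PET could thus be matched to it, and no WT interval is given. The same held for Gm51446–Actn4, Znrd1–Zfp57 and the Irf2bpl loops with Gm32806 and Gm40491. The KO value of a loop is 1 row of the pool, whereas its WT value sums every WT row matched within 1 kb. Malat1–Neat1 had a further KO row of 30 PETs that is not in the KO value above. The KO and WT values are thus unlike measures. These intervals cover counting error only, since PETs of 1 pool per genotype carry no replicate check, and a loop picked for a high KO count tends to look higher in KO.

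RNA levels of the genes at these loops were compared with edgeR's quasi-likelihood test on all 4 libraries, which at an FDR of 0.05 called 8.3% of the 15517 genes tested, 2.96% higher and 5.34% lower in KO. These calls depend on the filter on low counts. With no such filter edgeR called 2 of 27254 genes, and none of the 142 called genes listed for this report kept its call (Klf4 had an edgeR FDR of 0.073). Ranges over alternatives and lost calls given below leave that setting out. Mcl1 had 7800 and 5336 counts in the KO libraries, against 3325 and 3022 in the WT libraries. The groups did not overlap, and Mcl1 rose 2.30-fold (log2 fold change 1.20 ± 0.28 SE, edgeR FDR 0.038, and 0.011 to 0.34 over the other edgeR settings, the call being lost without either KO library). Neat1 had 839 and 985 counts in KO and 2720 and 2965 in WT, with no overlap, and fell 2.82-fold (log2 fold change -1.49 ± 0.24, edgeR FDR 0.011, and 9.9e-05 to 0.095 over the other edgeR settings, the call being lost without KO library B). Its neighbour Malat1 had 6091 and 7059 counts in KO and 9365 and 3747 in WT, so the WT libraries lay on both sides of the KO ones (log2 fold change 0.16, edgeR FDR 0.84). The Pml counts were 2413 and 2419 in KO and 1246 and 1029 in WT, a 2.36-fold rise (edgeR FDR 0.019), and those of Cd9 1358 and 1193 in KO and 3094 and 3894 in WT, a 2.47-fold fall (edgeR FDR 0.020). Both calls were lost without either KO library, with edgeR FDRs of up to 0.098 for Pml and 0.20 for Cd9. Hspa4, Zcchc10, Ensa, Actn4, Loxl1, Epha2, Fxr2, Eif4a1, Znrd1, Zfp57, Irf2bpl and Cipc had log2 fold changes from -0.65 to 0.92 and passed no edgeR threshold (FDR 0.074 for Actn4 and more for the others). In bulk RNA, fewer cells of a type and less RNA per cell cannot be told apart.

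The loops shared anchors and formed networks. They used 6336 anchors, of which 2413 had 1 loop and 259 (4.09%) had 10 or more. Anchors with 10 or more loops had a median width of 8432 bp, against 2953 bp for those with 1. Linked through shared anchors, the loops fell into 934 networks. Of these 389 were single loops, while 152 networks of 10 or more anchors held 7611 loops (78.4%). The network with the most anchors spanned chr7:27164090-31156998 and had 106 anchors, 301 loops and 110 coding genes. The next ones lay on chromosomes 10, 11 and 17, with 295, 217 and 231 loops. In the chromosome 7 network edgeR called 1 of 106 tested genes higher and 3 lower, against 2.96% and 5.34% of all tested genes.

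The pair of anchors with the most loops lay over several genes each. The anchor over Eif4a1, the SUMO protease gene Senp3, the glycan synthesis gene Mpdu1 and the SOX factor gene Sox15 (chr11:69654353-69720532, 66180 bp, the widest KO anchor) had 38 loops and 479 KO PETs, at distances of up to 981 kb. Among its partners were Trp53, which encodes p53, Polr2a, for the large polymerase II subunit, and Eif5a, for a translation factor. The anchor over Septin1, Tbc1d10b, Zfp553 and Mylpf (chr7:127204212-127241410) also had 38 loops, with 326 PETs, and reached the glycolysis gene Aldoa and the zinc finger gene Maz. Anchors at Gm46104, Mcl1, Lasp1, Ssr2, Cs and Ftl1 followed with 22 to 29 loops.

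Of the tested genes with the most loops 8 were taken, with ties in loop number broken by RNA-seq counts and predicted genes left out. None passed the edgeR threshold, against 8.3% of all tested genes. All 8 lay at the pair of anchors described above, so they are not separate cases, and so few genes cannot show a share below 8.3%. At an unadjusted p of 0.05, 2 were higher and 1 lower in edgeR, and DESeq2 called 2 higher and limma voom 0. Tbc1d10b, a GTPase regulator gene with 58 loops, had 1020 and 993 counts in KO and 994 and 1050 in WT (log2 fold change 0.13, edgeR FDR 0.78). Eif4a1 had 17914 and 16610 in KO and 13523 and 17056 in WT (0.32, edgeR FDR 0.54). Scaled by library size these were 2146 and 1967 CPM in KO and 1437 and 1855 CPM in WT, which did not overlap. Senp3 had 5028 and 5710 in KO and 3404 and 3486 in WT (0.79, edgeR FDR 0.089), and Septin1, for a cytoskeletal GTPase, 2337 and 2679 in KO and 1142 and 1660 in WT (0.98, edgeR FDR 0.063). For both, the KO counts lay above the WT counts, and under other edgeR settings the FDR ran from 0.082 to 0.59 for Senp3 and from 0.0048 to 0.35 for Septin1. The other 4, Mpdu1, Zfp553, Mylpf and Sox15, had log2 fold changes from -0.66 to 0.50 and edgeR FDRs of 0.16 or more.

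Chromosomes differed in how many loops they held for their number of genes. Chromosome 11 had 76.2 loops per 100 coding genes, chromosome 17 71.5, chromosome 19 63.1, chromosome 10 61.0 and chromosome 7 59.4. Chromosome 1 had 22.5, chromosome 14 28.9, the X chromosome 8.49 and the Y chromosome 1 loop in all. What sets these differences was not tested.

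In the WT pool, 1922 of the 9706 loops (19.8%, exact 95% interval 19.0 to 20.6) had at least 1 PET between anchors within 1 kb of both KO anchors. A WT anchor lay at both ends of 4605 loops (47.4%), and 41.7% of these had a WT PET. The share with a WT PET was larger for loops with more KO PETs. Among loops with a WT anchor at both ends it was 29.1% for 2 KO PETs, 42.0% for 3 to 4, 58.0% for 5 to 9, 73.0% for 10 to 19 and 88.6% for 20 or more. Over all loops these shares were 12.7%, 19.9%, 31.3%, 42.8% and 55.7%. At the depth of the WT pool the loss of a loop and its absence from the sample cannot be told apart.

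**Figure D2:**
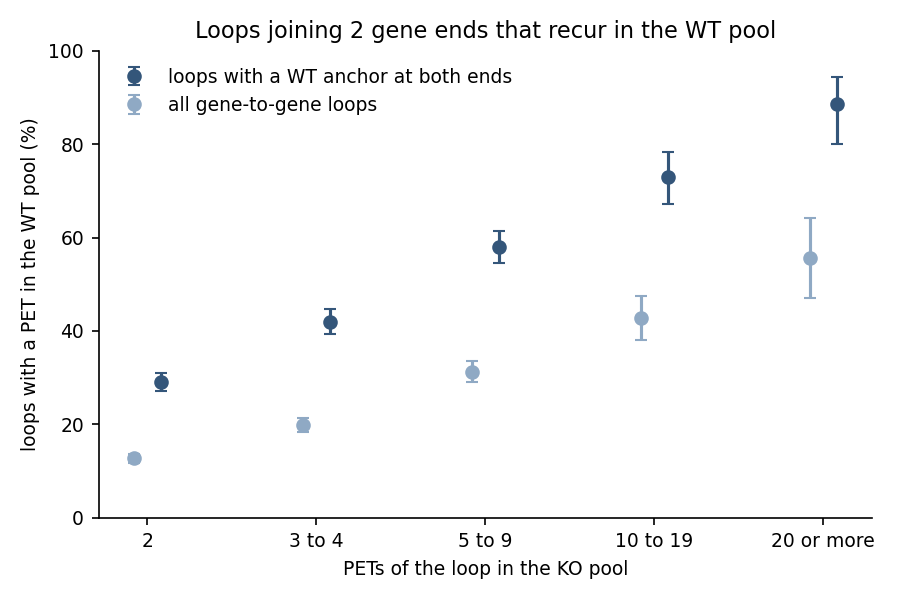
Percent of gene-to-gene loops with at least 1 PET in the WT pool against the loop's PETs in the KO pool, over all loops and over loops with a WT anchor at both ends, with exact 95% binomial intervals. Both shares are largest for loops of 20 or more PETs, at 55.7% and 88.6%.

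Among other KO loops of the same range, smaller shares had a counterpart in the WT pool, and fewer had WT anchors at both ends. A WT PET was found for 4.91% of KO loops between a gene and a distal site and for 41 of 3484 between distal sites. Where a WT anchor lay at both ends, the shares were 38.5% and 33.1% (exact interval 24.9 to 42.1), against 41.7% for the gene-to-gene loops. In the other direction, 901 of 1337 WT loops found by the same rule (67.4%) had a PET in the KO pool. Of all mid-range WT loops, these 1337 made up 68.5%, against 42.2% in the KO pool. The anchors themselves differed, with 78.4% of WT anchors near a gene end against 56.1% of KO anchors. The part of this difference in the shares of this paragraph was not tested. WT rows at the gene-to-gene loops held 3958 PETs against 39633 in KO, which was 16.7% of KO and 16.8% of WT PETs between different anchors. These shares are unlike measures. The KO rows were chosen for 2 or more PETs in that pool, and the WT rows include any match within 1 kb, also of 1 PET.

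The loops with the most WT PETs were of few kinds. The Malat1–Neat1 pair gave the first 2, with 117 PETs in KO and 54 in WT, and 30 in KO and 47 in WT. These loops shared the Neat1 anchor, and their Malat1 anchors lay close together (chr19:5799057-5815016 and chr19:5791536-5797976). The same WT PETs can thus be counted for both, and the WT values are not separate. Replication-dependent histone genes on chromosome 13 gave several, among them H4c12–H3c11 with 5 PETs in KO and 26 in WT, H2ac10–H2ac8 with 14 in KO and 22 in WT, and H2ac8–H1f2 with 9 in KO and 22 in WT. Repeated gene models gave others, such as Gm40987–Gm46429 with 60 in KO and 34 in WT and loops of Gm10060 with 13 and 16 in KO and 21 and 23 in WT. Histone genes and these models have near-identical copies, so the placement of their tags is uncertain. Mid1-ps1–Gm33272, at the end of the Y chromosome, had 4 PETs in KO and 34 in WT. The 5 tested genes of that chromosome had a median log2 fold change of -10.06, and 80% of them were called. The part of that shift in the PET counts of this loop was not tested. Counts of Mid1-ps1 itself were 175 and 230 in KO and 215 and 208 in WT (edgeR FDR 0.89). Mybl2, for a cell cycle transcription factor, and Gtsf1l were joined by 22 PETs in KO and 16 in WT.

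The share of genes called between genotypes was smaller among genes joined by these loops than among all tested genes. Against the 8.3% called over all tested genes (2.96% higher and 5.34% lower), the joined genes gave smaller shares in both directions. Of 6372 joined genes that were tested, 351 were called (5.51%), 127 of them higher (1.99%) and 224 lower (3.52%). Genes in KO loops to distal sites only had a called share of 8.43% (of 795), genes at another KO anchor 6.47% (of 2629) and genes at no KO anchor 14.2% (of 4544). Log2 fold changes of joined genes had quartiles of -0.38 and 0.34, against -0.49 and 0.39 over all 14340 tested genes with a position. Joined genes in loops of 10 or more PETs had a called share of 8.31% (75 of 902), near that of all tested genes.

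**Figure D3:**
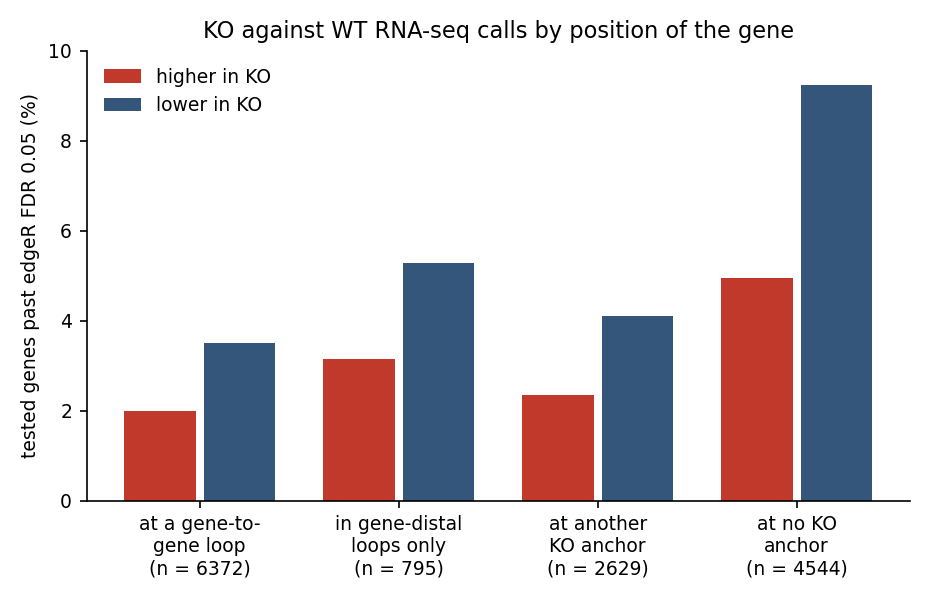
Percent of tested genes called higher or lower in KO against WT RNA-seq (edgeR FDR 0.05) by the position of the gene, for genes in gene-to-gene loops, in gene-to-distal loops only, at another KO anchor and at no KO anchor. Shares for genes in gene-to-gene loops were 1.99% and 3.52%, and those for genes at no KO anchor 4.95% and 9.24%.

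The sets also differed in expression. Of joined coding genes 93.4% passed the count filter, against 94.8% of coding genes in loops to distal sites only and 29.7% of those at no KO anchor. The anchors come from the KO pool itself, so these sets of genes are not independent of expression in KO cells, and the effect of that selection on the called share cannot be told apart from one of the loops. Chromosome 14 held 41 of the called joined genes among 200 tested there, 37 of them lower. Without that chromosome the called share was 5.02% of joined genes and 8.18% of all. Leaving out single libraries moved both shares, to between 3.34% and 13.8% of joined genes and between 6.14% and 15.5% of all, and the joined share was the smaller in each of these 4 fits.

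The 10 joined genes with the largest called rises were of several kinds. Egr1, an immediate early transcription factor gene, had 53 and 188 counts in KO and 3 and 2 in WT, a 50.7-fold rise (edgeR FDR 0.0076). Its strongest loop ran 79.8 kb to the histone demethylase gene Kdm3b, with 7 PETs in KO and 0 in WT, while the log2 fold change of Kdm3b was 0.01 (edgeR FDR 0.99). Myrf, for a membrane-anchored regulator of myelin genes, had 764 and 911 counts in KO and 33 and 42 in WT, a 24.6-fold rise (edgeR FDR 7.7e-04), and was joined to the DNA replication gene Fen1. For Fen1 itself the log2 fold change was 0.27 (edgeR FDR 0.54). Slc16a3, the lactate exporter gene, had 1176 and 989 in KO and 49 and 77 in WT, 19.0-fold higher (edgeR FDR 0.0012). Myc, which promotes cell growth, had 126 and 296 in KO and 14 and 24 in WT, 12.2-fold higher (edgeR FDR 0.0082), with 1 loop of 4 PETs to the non-coding RNA gene Pvt1 (log2 fold change -0.13, edgeR FDR 0.86). In all of these the KO counts lay above the WT counts while the partner gene passed no threshold.

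Eras, which encodes a Ras protein of embryonic stem cells, had 509 and 411 counts in KO and 30 and 58 in WT (11.5-fold, edgeR FDR 0.0035). Bcl6b, a repressor gene, had 43 and 50 in KO and 3 and 6 in WT (11.1-fold, edgeR FDR 0.012), and Dlg4, for a synaptic scaffold protein, 211 and 116 in KO and 16 and 19 in WT (10.3-fold, edgeR FDR 0.0061). Bcl6b and Dlg4 were both joined to the Eif4a1 anchor, over 534 and 328 kb, with 5 and 7 KO PETs and 1 WT PET each. Sv2a, of synaptic vesicles, rose 8.23-fold (edgeR FDR 0.0073) and lay in 12 loops, with partners in a histone gene cluster and at the splicing factor gene Sf3b4. The stress gene Gadd45g rose 16.2-fold on 305 and 49 KO counts against 6 and 18 in WT (edgeR FDR 0.032, and up to 0.097 over the alternatives, the call being lost with limma voom), and Ankrd34a 13.0-fold (edgeR FDR 0.026, and up to 0.060 over the alternatives, lost without KO library F).

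The 10 with the largest falls were mostly weakly expressed in KO. Zfp951, a zinc finger gene, had 2 and 7 counts in KO and 300 and 213 in WT, 50.1-fold lower (edgeR FDR 0.0023). Pkd2l1, a cation channel gene, had 2 counts over both KO libraries and 105 over the WT ones, a ratio of 47.4 (exact 95% interval 12.8 to 396), and Hyal3, a hyaluronidase gene, 3 in KO and 100 in WT, a ratio of 30.1 (10.0 to 148), at edgeR FDRs of 0.0097 and 0.019. Cdx1, a homeobox gene of the posterior embryo, had 14 and 16 counts in KO and 371 and 618 in WT, 29.6-fold lower (edgeR FDR 0.0015). Its single loop, of 2 PETs, ran to Mir7220. For each of these the KO counts lay far below the WT counts, with no overlap.

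Ffar3, Fetub, Smtnl1, Aqp3 and Ube2l6 fell between 10.2-fold and 13.2-fold (edgeR FDR 0.0020 to 0.015). Aqp3, a water and glycerol channel gene, was the most abundant of them, with 160 and 102 counts in KO and 1396 and 1636 in WT, and lay in 7 loops. Its partners Ubap2, Bag1 and Ube2r2 had log2 fold changes of 0.54, -0.18 and -0.50 and passed no edgeR threshold (FDR 0.21 to 0.75). Among the named partners of these 10 falling genes 1 was also called, Gnai2, a G protein subunit gene joined to Hyal3 (log2 fold change -1.50, edgeR FDR 0.013, and up to 0.088, lost without either KO library). The Hyal3–Gnai2 loop spanned 52.9 kb and had 2 PETs in KO and 1 in WT.

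Log2 fold changes at both ends of a loop had the same sign in about the share seen for gene pairs at the same distance. For each loop with a tested gene at both ends, the gene with the most counts at each end was taken. In 4165 of 7627 such loops (54.6%) both genes had the same sign, against 52.4% of 112375 pairs of tested genes whose starts lay 20 kb to 1 Mb apart. The loops were shorter than these pairs. Within distance bins, the shares were 56.9% for loops and 57.2% for pairs at 20 to 50 kb, 55.0% and 55.1% at 50 to 100 kb, and 54.9% and 54.1% at 100 to 200 kb. At 200 to 500 kb they were 53.4% and 51.8%, and at 500 kb to 1 Mb 49.3% and 51.4%. Over the loops the log2 fold changes of both ends had r = 0.14 and a rank correlation of 0.13, given as a description of 6856 distinct gene pairs that reuse 4745 genes in shared neighbourhoods.

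**Figure D4:**
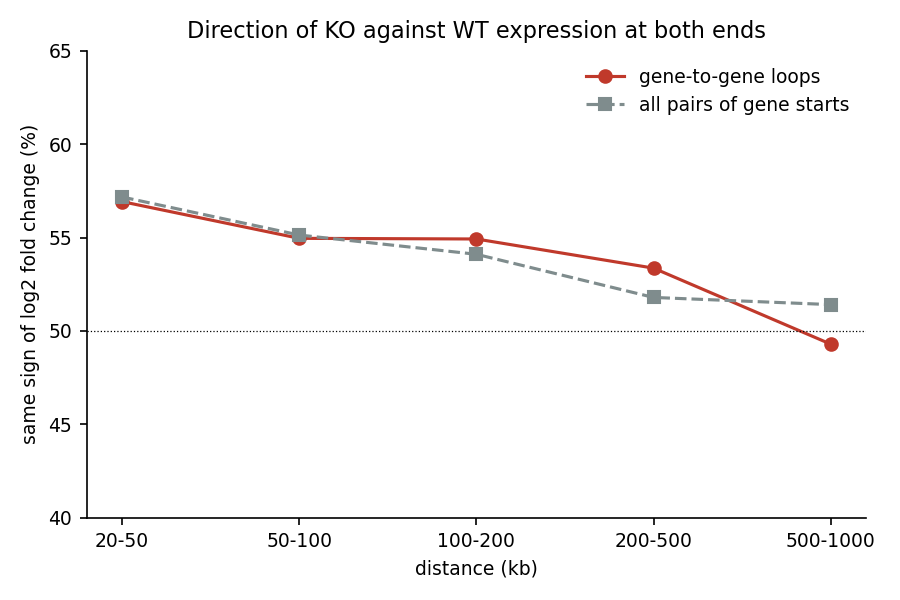
Percent of gene pairs whose log2 fold changes (KO over WT) have the same sign, against distance, for gene-to-gene loops and for all pairs of gene starts. Both lines run close together, from 56.9% and 57.2% at 20 to 50 kb to 49.3% and 51.4% at 500 kb to 1 Mb.

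The share differed little with loop strength. It was 53.4% for loops of 2 PETs, 55.7% for 3 to 4, 54.9% for 5 to 9 and 58.5% for 10 or more. On chromosome 14 it was 85.5% of 193 loops, against 79.1% of gene pairs there, and without that chromosome 53.8% of loops and 51.8% of pairs. With 1 gene per end, both genes were called in 52 loops (0.682%), against 0.767% of all gene pairs. Of these 52 loops, 39 had the same sign, as had 585 of the 862 pairs. Chromosome 14 held 17 of the 52, all of the same sign. Without it both genes were called in 0.471% of loops and 0.643% of pairs, with the same sign in 22 of 35 loops and 450 of 705 pairs.

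Counting every gene at an anchor, 73 loops (0.752%) had a called gene at both ends, 1158 (11.9%) at 1 end and 8475 (87.3%) at neither. For direction, the called gene with the largest change at each anchor was taken, also where another called gene there went the other way. In 11 of the 73 both genes were higher in KO, in 43 both were lower and in 19 they went opposite ways. They involved 92 genes on 10 chromosomes. Falls outnumbered rises among single genes too, with 224 joined genes called lower and 127 higher, and 5.34% and 2.96% of all tested genes. No share over gene pairs was computed with every gene at an anchor counted, so these loop counts have no like background. Of the loops with both genes lower, 18 were on chromosome 14 and 25 elsewhere. The count of 73 was 21 without KO library F, 26 without KO library B, 280 without WT replicate 1 and 119 without WT replicate 2.

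Of the 12 loops named by the smaller change of their called genes, 10 were on chromosome 14, which held 20 of all 73. Zfhx2, for a zinc finger homeobox protein, had 111 and 244 counts in KO and 1207 and 820 in WT, with no overlap, and fell 5.15-fold (edgeR FDR 0.012). Its counts are uncertain where the antisense gene Zfhx2os overlaps it, since the sources used here do not give the strand setting. Nynrin, named for its retroviral integrase-like domain, had 42 and 84 counts in KO and 834 and 514 in WT, 9.63-fold lower (edgeR FDR 0.0045). A loop of 3 KO PETs and 0 WT PETs ran 771 kb between them, over 34 coding genes. Nynrin was also joined to Nfatc4, for a calcium-regulated transcription factor, by 16 PETs in KO and 0 in WT over 27.6 kb. Nfatc4 had 94 and 92 counts in KO and 305 and 311 in WT, 2.99-fold lower (edgeR FDR 0.016, and up to 0.059 over the alternatives, lost without KO library F), and the promoters of this pair are printed above. Loops of 2 PETs joined Zfhx2 to Pck2, a mitochondrial gluconeogenic enzyme gene (3.70-fold lower, edgeR FDR 0.0079), Rec8, a meiotic cohesin gene, to Tm9sf1, and Tm9sf1 to Nynrin. Rec8 and Tm9sf1 fell 4.59-fold and 3.67-fold (edgeR FDR 0.014 for both). Zfhx2 was joined by 7 PETs to Ap1g2, for a vesicle coat subunit, which fell 3.45-fold (edgeR FDR 0.015, and up to 0.051 over the alternatives, lost without KO library F).

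By the called gene of largest change at each anchor, 2 loops in this region paired opposite changes. Jph4, for a junctophilin of neurons, had 71 and 57 counts in KO and 16 and 8 in WT, 5.87-fold higher (edgeR FDR 0.022), and was joined to an anchor at the start of Zfhx2 by 13 PETs in KO and 0 in WT over 23.5 kb, and to one at its end by 2 PETs in KO and 0 in WT over 47.7 kb. The Jph4 anchor (chr14:55104901-55107745) also touched an end of Ap1g2, which had more counts than Jph4 and fell, as Zfhx2 did. Elsewhere on chromosome 14 the synuclein gene Sncg was joined to Grid1, a glutamate receptor family gene, by 3 KO PETs over 462 kb. Sncg had 14 and 8 counts in KO and 83 and 97 in WT (7.32-fold lower, edgeR FDR 0.012). Grid1 had 0 counts in both KO libraries and 32 and 23 in WT, at least 16.5-fold lower (edgeR FDR 0.011, floor of 3 counts over the KO group). Fut11 and Ndst2, both for Golgi enzymes, fell 4.38-fold and 4.46-fold (edgeR FDR 0.021 and 0.014) and shared a loop of 2 PETs in KO and 1 in WT. Tested chromosome 14 genes had a lower quartile of -1.21 in log2 fold change, and the falling genes named in these loops lay below it. The part of the chromosome's shift in their falls was not tested.

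Off chromosome 14, a chain on chromosome 4 joined genes that were all lower in KO. Plekhf2, for an endosomal protein, had 408 and 380 counts in KO and 1347 and 989 in WT, 2.67-fold lower (edgeR FDR 0.016, and up to 0.099 over the alternatives, lost without either KO library). It was joined to Ndufaf6, a respiratory complex I assembly gene, by 27 PETs in KO and 0 in WT over 34.7 kb (chr4:11003108-11018647 and chr4:11042914-11048299). This loop did not have a WT anchor at each end, so no WT PET could be matched to it. Ndufaf6 had 86 and 81 counts in KO and 268 and 386 in WT, 3.54-fold lower (edgeR FDR 0.015). Plekhf2 was also joined to the p53 target Trp53inp1 by 4 PETs in KO and 2 in WT over 144 kb. Trp53inp1 had 663 and 847 counts in KO and 3678 and 2011 in WT, 3.39-fold lower (edgeR FDR 0.016). In all 3 genes the KO counts lay below the WT counts. Nfatc4, Plekhf2, Ndufaf6, Slc25a20, P4htm, Gpx1 and 4930461G14Rik are named outside the rule for naming genes and were chosen after their values were seen.

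Of the 53 loops off chromosome 14, 17 paired genes that went opposite ways, among them S1pr2–Keap1 on chromosome 9, with 8 PETs in KO and 0 in WT (log2 fold changes 1.64 and -1.16, edgeR FDR 0.0097 and 0.039), and Phc1–Gdf3 on chromosome 6, with 6 in KO and 2 in WT (1.40 and -1.14, edgeR FDR 0.014 and 0.027). These examples were chosen after their values were seen, and the calls of Keap1, Phc1 and Gdf3 were lost without either KO library, that of Keap1 also with library totals only (edgeR FDR up to 0.28, 0.071 and 0.20). The pairs that follow, on chromosomes 6, 7, 9 and 15, changed the same way. On chromosome 7 the zinc finger genes Zfp628 and Zfp865 fell 3.67-fold and 3.51-fold (edgeR FDR 0.016 and 0.012, and up to 0.051 for Zfp865, whose call was lost without KO library B) and were joined by 6 PETs in KO and 3 in WT over 104 kb. On chromosome 9 the carnitine carrier gene Slc25a20 (3.54-fold lower, edgeR FDR 0.0073) was joined to the hydroxylase gene P4htm (2.87-fold lower, edgeR FDR 0.040) by 10 PETs in KO and 2 in WT, and to the glutathione peroxidase gene Gpx1 (2.53-fold lower, edgeR FDR 0.040) by 5 in KO and 0 in WT. The P4htm and Gpx1 calls were lost without either KO library (edgeR FDR up to 0.15 and 0.17), and that of P4htm also without WT replicate 2. On chromosome 15 the retinoic acid receptor gene Rarg had 1718 and 1984 counts in KO and 476 and 538 in WT, 4.04-fold higher (edgeR FDR 0.0041). Rarg was joined to the gene model Gm9918 (4.90-fold higher, edgeR FDR 0.022) by 3 KO PETs over 36.8 kb. On chromosome 6 the glycolysis genes Tpi1 and Gapdh rose 3.26-fold and 2.95-fold (edgeR FDR 0.015 and 0.020, and up to 0.13 for Gapdh, whose call was lost without KO library B) and were joined by 4 PETs in KO and 3 in WT over 359 kb. Both have processed copies in the genome, so their counts are uncertain. On chromosome 9, Pml was joined to 4930461G14Rik (3.15-fold higher, edgeR FDR 0.042, and up to 0.13, lost without KO library B or either WT library) by 15 PETs in KO and 1 in WT.

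**Figure D5:**
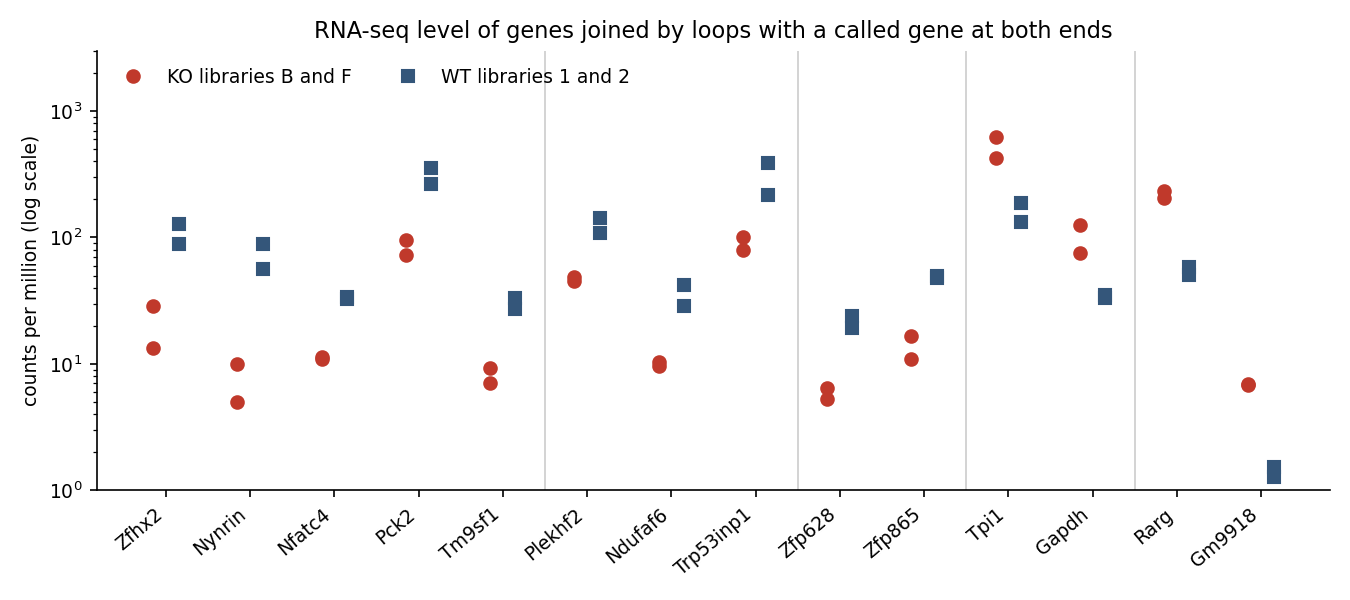
RNA-seq CPM (log scale) in KO libraries B and F (circles) and WT libraries 1 and 2 (squares) for 14 genes joined by loops with a called gene at both ends, with lines between genomic groups. KO circles lie below the WT squares for the first 10 genes, Zfhx2 to Zfp865, and above them for Tpi1, Gapdh, Rarg and Gm9918.

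Gene groups differed in how many members were joined. Of annotated coding genes 29.1% were joined, and of tested genes with a position 44.4%, the whole tested set having a median log2 fold change of -0.01. Counts of called members in each group below stand against 2.96% higher and 5.34% lower over all tested genes. Of 22 translation genes 21 were joined, of 32 RNA processing genes 28, of 30 proteostasis genes 24 and of 36 chromatin and loop factor genes 26. Of 98 ribosomal protein genes 79 were joined, in 405 loops, of which 43.7% had a WT PET. Of the early neural genes 1 of 32 was joined, of the formative epiblast genes 5 of 24 (20.8%) and of the protocadherin genes 0 of 69.

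The housekeeping groups and the chromatin group had 0 to 2 called genes each, against 8.3% of all tested genes. Groups of 21 to 28 genes are too small to show a share below that. None of the 21 translation, 24 proteostasis and 77 ribosomal protein genes that were joined and tested passed the edgeR threshold, with median log2 fold changes of 0.01, 0.11 and -0.38. The ribosomal protein median lay beside the lower quartile of all joined genes, also -0.38. At an unadjusted p of 0.05 edgeR had 0 higher and 2 lower translation genes, 3 and 2 proteostasis genes and 1 and 5 ribosomal protein genes. DESeq2 called 2, 2 and 1 genes of these groups and limma voom 0. Of 28 joined RNA processing genes 1 passed, Neat1. The chromatin group had 2 called genes of 26, both higher, the polycomb cofactor gene Jarid2 (2.27-fold, edgeR FDR 0.043) and Dppa4 (2.25-fold, edgeR FDR 0.026), calls that were lost without KO library F, and for Dppa4 also without KO library B and for Jarid2 without WT replicate 2 or with library totals only (edgeR FDR up to 0.37 for Jarid2 and 0.14 for Dppa4). Of 58 joined respiratory chain genes 1 was called, Ndufaf6. Ribosomal protein genes have many processed copies, so their counts are uncertain.

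Hypoxia and glycolysis genes had the largest number of calls among the joined groups. Of 30 listed 18 were joined and tested, and 10 rose and 0 fell, against 2.96% and 5.34% of all tested genes, with a median log2 fold change of 1.31. At an unadjusted p of 0.05 edgeR had 13 higher and 0 lower, DESeq2 called 11 and 0, and limma voom 10 and 0. Pdk1, for the kinase that blocks pyruvate dehydrogenase, had 1407 and 1938 counts in KO and 302 and 243 in WT (6.80-fold, edgeR FDR 0.0025). The glucose transporter gene Slc2a1 had 5667 and 4492 in KO and 1237 and 1237 in WT (4.55-fold, edgeR FDR 0.0039), and the phosphofructokinase gene Pfkl 3966 and 2983 in KO and 891 and 1068 in WT (3.93-fold, edgeR FDR 0.0063). Aldoc, Pkm, Tpi1, Gapdh, P4ha1, Eno1 and Pgam1 rose between 2.39-fold and 3.65-fold (edgeR FDR 0.011 to 0.032), of which Pgam1 and Eno1 lost the call without either KO library and Gapdh, Aldoc and P4ha1 without KO library B (edgeR FDR up to 0.17). Their loops numbered 87, led by Tpi1–Usp5 with 22 PETs in KO and 7 in WT and Aldoa–Septin1 with 21 in KO and 3 in WT. A WT PET was found for 33.3% of them, and 1 loop, Tpi1–Gapdh, joined 2 genes of the group.

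Calls in the p53 target group went the other way, with 0 of 14 joined genes higher and 4 lower, against 2.96% and 5.34% of all tested genes. The group's median log2 fold change of -0.28 lay within the quartiles of all joined genes (-0.38 and 0.34). An unadjusted edgeR p of 0.05 gave 0 higher and 5 lower, DESeq2 the same numbers and limma voom 0 and 4. Cdkn1a, for the cell cycle inhibitor p21, had 401 and 258 counts in KO and 1893 and 2222 in WT (5.63-fold lower, edgeR FDR 0.0039). Trp53inp1 fell 3.39-fold, Ccng1 2.48-fold (edgeR FDR 0.019) and Sesn2 2.05-fold (edgeR FDR 0.044), and Ccng1 and Sesn2 lost the call without either KO library, Sesn2 also with library totals only (edgeR FDR up to 0.18 and 0.40). Trp53 itself, which the group includes, was joined to Eif4a1 by 46 PETs in KO and 3 in WT, with a log2 fold change of -0.27 (edgeR FDR 0.55).

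Joined pluripotency genes split, with 2 of 16 higher and 2 lower (median log2 fold change 0.25). Lin28a, for an RNA-binding repressor of let-7, had 2032 and 2087 counts in KO and 590 and 538 in WT (4.05-fold higher, edgeR FDR 0.0038), and Utf1 3082 and 3113 in KO and 493 and 821 in WT (5.21-fold higher, edgeR FDR 0.0052). Tbx3, a naive state factor, fell 2.29-fold (edgeR FDR 0.032), and the call went without either KO library (edgeR FDR up to 0.29), and Jam2 3.16-fold (edgeR FDR 0.016, and up to 0.12, lost without KO library B). The strongest loops of this group ran from Zfp57, with 74 PETs in KO and 0 in WT to Znrd1 and 62 in KO and 7 in WT to Gabbr1. Zfp57 had 5430 and 7478 counts in KO and 4816 and 5015 in WT (log2 fold change 0.54, edgeR FDR 0.26).

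Of the FGF-ERK genes 10 of 25 were joined, of the WNT, Hippo and Nodal genes 13 of 35 (37.1%) and of the cell cycle genes 21 of 31 (67.7%), against 29.1% of annotated coding genes. Of 5 joined formative genes Etv4 rose 3.71-fold (edgeR FDR 0.011) and Zic2 2.43-fold (edgeR FDR 0.037, and up to 0.16, lost without KO library B, KO library F or WT replicate 2). The joined early neural gene was Hes1, a Notch effector, with 205 and 152 counts in KO and 609 and 911 in WT (3.85-fold lower, edgeR FDR 0.011) and 1 loop of 9 PETs to Gm26562. In the FGF-ERK group 2 of 9 joined and tested genes were higher, Egr1 and the ERK phosphatase gene Dusp6 (4.29-fold, edgeR FDR 0.018), and 0 were lower (1 at an unadjusted p of 0.05, and 0 in DESeq2 and limma voom). In the cell cycle group Myc and the cyclin gene Ccne1 (2.66-fold, edgeR FDR 0.014) were higher and Mycl (2.94-fold, edgeR FDR 0.019, and up to 0.10, lost without KO library B) lower, of 21. In the WNT, Hippo and Nodal group 1 of 13 rose, the BMP target Id1 (4.21-fold, edgeR FDR 0.027), and 3 fell, Cdx1, Amotl2 (2.77-fold, edgeR FDR 0.013, and up to 0.10, lost without KO library B) and Axin2 (2.47-fold, edgeR FDR 0.037, and up to 0.15, lost in 4 alternatives). Loops of this last group had a WT PET in 6.82% of 44 cases.

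Clustered gene families were in part joined within themselves. Of 101 histone genes 62 were joined, in 128 loops, of which 39 had histone genes at both ends and 51.6% had a WT PET. Of 18 joined histone genes tested 1 was called higher, H2ac10, with 28 and 17 counts in KO and 2 and 3 in WT (edgeR FDR 0.028, and up to 0.15, lost without KO library B or WT replicate 1), and reads of these genes can be shared between copies. HOX genes were joined in 15 of 43 cases, in 30 loops, of which 10 had HOX genes at both ends. None of the 30 had a WT PET or a WT anchor at both ends. Only 4 joined HOX genes passed the count filter, and none of them the edgeR, DESeq2 or limma voom threshold (1 lower at an unadjusted edgeR p of 0.05, median log2 fold change -0.50). Zinc finger protein genes were joined in 217 of 403 cases and in 584 loops, 74 of them with such genes at both ends, and 3 of 210 tested were higher and 5 lower, against 2.96% and 5.34% of all tested genes.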

How the data were processed

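RNA-seq and RNA polymerase II HiChIP of KLF4-KO and WT E14 cells were analysed from the deposited files. Per the submitters' processing notes, the reference was mm10 and the tools were HiC-Pro 2.11.4, DESeq2 1.18.1, HTSeq 0.9.1 and HISAT2 2.1.0. The deposited RNA-seq values are raw counts of reads per Ensembl gene, and the deposited HiChIP values are counts of PETs per pair of anchors, in 1 pool of replicates per genotype. The sources used here do not give the loop caller, the anchor definition, the strand setting or the gene annotation. The library sum of reads in named genes was 34.5% to 36.0% of all records, and records of no gene (64.0% to 65.5%) entered neither the library sizes nor the tests. The labels call the samples biological replicates, and p-values measure the spread between these libraries only.

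Loops were classified with Python 3.11.15 and pandas 2.3.3 against RefSeq gene coordinates on mm10. Strands came from the RefSeq promoter table on GRCm38.p6, and genes without an entry there were left out of start and end shares. A WT row matched a loop when both its anchors lay within 1 kb of the KO anchors. PETs of all WT rows that matched a loop were summed, and 1 WT row can match more than 1 loop. Networks were built with networkx 3.6.1. Expression was fitted in R 4.3.3 by the quasi-likelihood test of edgeR 4.0.16, with TMM scaling, the filterByExpr filter and no term other than genotype. P-values of the 15517 genes were adjusted by Benjamini-Hochberg, with an FDR threshold of 0.05. RefSeq positions were matched for 14340 of them. CPM are counts scaled by the TMM-adjusted library size, and the test was checked on simulated counts. The alternatives were DESeq2 1.42.0, limma voom (limma 3.58.1), RLE factors, no scaling factors, other filters and leaving out each library. For the loops they were other windows, PET minimums, distances and matches to the WT pool.

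The loops, gene lists and alternatives were chosen with earlier results of these data known. Named loops are the 12 with the most KO PETs, up to 12 with a called gene at both ends by the smaller change, up to 12 with the most WT PETs and up to 3 per gene list. Named genes are the 8 with the most loops, the 10 called rises and 10 called falls of largest fold change (mean of at least 2 CPM, with no overlap between KO and WT libraries), and Klf4. Predicted genes, Rik clones and pseudogenes were named where an anchor touched no other gene. One gene and 1 loop that these rules name are not reported here. Called members of the gene lists were named after their values were seen.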

Additional observations from a re-analysis of the deposited data

How the results depend on the processing

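Of 63 alternative values for the 7 counts, 43 lay within 1.5 times the reported one. The 9706 loops were 5013 at 3 or more PETs and 24501 at 1 or more, and the 5659 loops joining 2 starts were 2923 and 14029. Of the 1922 loops with a WT PET, 810 had 2 or more, and 2 matched a WT row by identical coordinates. DESeq2 called 214 joined genes higher, against 127 in edgeR, and 150 loops had a called gene at both ends, against 73, or 39 where genes had to be touched at their start. With no filter on low counts edgeR called 0 joined genes higher and 0 lower (1221 at an unadjusted p of 0.05), 0 loops at both ends and 2 of 27254 genes in all. Leaving out single libraries gave 90 to 398 joined genes higher, 117 to 497 lower, 21 to 280 loops called at both ends and 4109 to 4346 loops of the same sign. The highest count in each came without WT replicate 1. For loops called at both ends and for higher genes the lowest came without KO library F, and for lower genes without KO library B (117, and 127 without KO library F). The called share of joined genes was below that of all tested genes under DESeq2 (8.36% and 10.6%) and limma voom (5.32% and 7.76%) too. Leaving out chromosome 14 and limiting anchors to 10 kb were added after the data were seen, and neither moved a count by 1.5 times. The cause of these differences was not tested. No paired analysis was possible because the KO columns carry letters, not the replicate numbers of the labels. With 1 pool per genotype, PET counts have no replicate error, and the WT pool limits what a missing PET shows.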
